A study of Mus musculus with 6 samples.

Results

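Cholangiocyte and progenitor markers were followed in hepatocytes from CCl4-treated mice with and without FOXA2 in the hepatocyte. The 9 genes were Krt7, Krt19, Epcam, Sox9, Spp1, Prom1, Cftr, Cd24a and Cldn7, chosen by name from the 34745 genes listed for every library, and each of them matched 1 gene. Male FOXA2f/f mice, with both Foxa2 alleles floxed, received AAV8-TBG-Control (FOXA2f/f) or AAV8-TBG-Cre (FOXA2H-KO) 2 weeks before CCl4. Both groups were then given CCl4, a hepatotoxin that provokes fibrosis, at 0.25 ml/kg, 2 times a week for 4 weeks, and the labels give their age as 12 weeks. Hepatocytes were isolated by collagenase perfusion and low-speed centrifugation, and poly-A RNA of 3 libraries per group (replicates 1, 2 and 4) was sequenced. TBG is a hepatocyte promoter, so that duct cells and other non-parenchymal cells of a FOXA2H-KO liver keep their Foxa2 alleles. Untreated mice were not part of these libraries, so no value speaks to the effect of CCl4 itself.

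Cholangiocytes line the bile ducts and are marked by the keratins Krt7 and Krt19, by the adhesion molecule Epcam and by the transcription factor Sox9. In chronic liver injury a ductular reaction can appear, in which duct-like and progenitor-like cells expand around the portal tract and injured hepatocytes may themselves take on some duct markers, Sox9 and Spp1 among them. Prom1 (CD133) and Cd24a are cell-surface proteins used to isolate liver progenitor cells, and FOXA proteins are known for their part in bile duct homeostasis as well as in hepatocyte gene expression.

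The isolates were hepatocyte RNA in the main. The 8 hepatocyte markers summed to between 48691 and 57519 FPKM in the 6 libraries, with albumin far above the rest, whereas Krt19 was listed at 0.368 to 1.63 FPKM. FPKM here is the authors' count of fragments per kilobase of gene, scaled to the total count of the library. In bulk RNA of this kind, fewer cells of a type and less RNA per cell cannot be told apart. Library totals ran from 20983455 to 28327765 counts, and Foxa2, the deleted gene, followed the labels. Foxa2 stood at 18.99, 13.5 and 16.4 CPM (counts scaled to a common library size by the TMM method) in FOXA2f/f replicates 1, 2 and 4, and at 1.03, 0.762 and 1.62 CPM in FOXA2H-KO replicates 1, 2 and 4. Its log2 fold change was -3.85 ± 0.31 (SE, n = 3 per group; edgeR's quasi-likelihood test, Benjamini-Hochberg adjusted p = 0.0313). Over 17 alternative fits the adjusted p of Foxa2 was between 4.2e-29 and 0.499, and leaving out any 1 library other than FOXA2f/f replicate 2 took it over 0.05 (0.0624 to 0.499). All fold changes below are FOXA2H-KO over FOXA2f/f, with adjusted p-values from that test.

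All but 1 of the 8 tested duct and progenitor markers had a higher mean in FOXA2H-KO hepatocytes and Prom1 had a lower one, and none passed the test. Of the 8 members with enough counts to be tested, 0 reached an adjusted p under 0.05 with at least a 2-fold difference, the rule by which 0.00694% of the 14417 tested genes, Foxa2 alone, were called. At an unadjusted p under 0.05 there were 2 members on the higher side, Krt7 and Spp1, where the share over all genes was 1.98%, and 1 on the lower side, Prom1, where it was 3.18%. The median log2 fold change of the 8 was 0.82, beside -0.01 for all genes tested. The groups of 3 libraries did not overlap for Krt7, Krt19 and Cd24a on the higher side, where 4.54% of all genes did not, and for Prom1 on the lower side, where 5.96% did not. An exact permutation test of 3 libraries against 3 cannot give a two-sided p below 0.1, so single values were compared only through the fit over all genes.

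**Figure D1:**
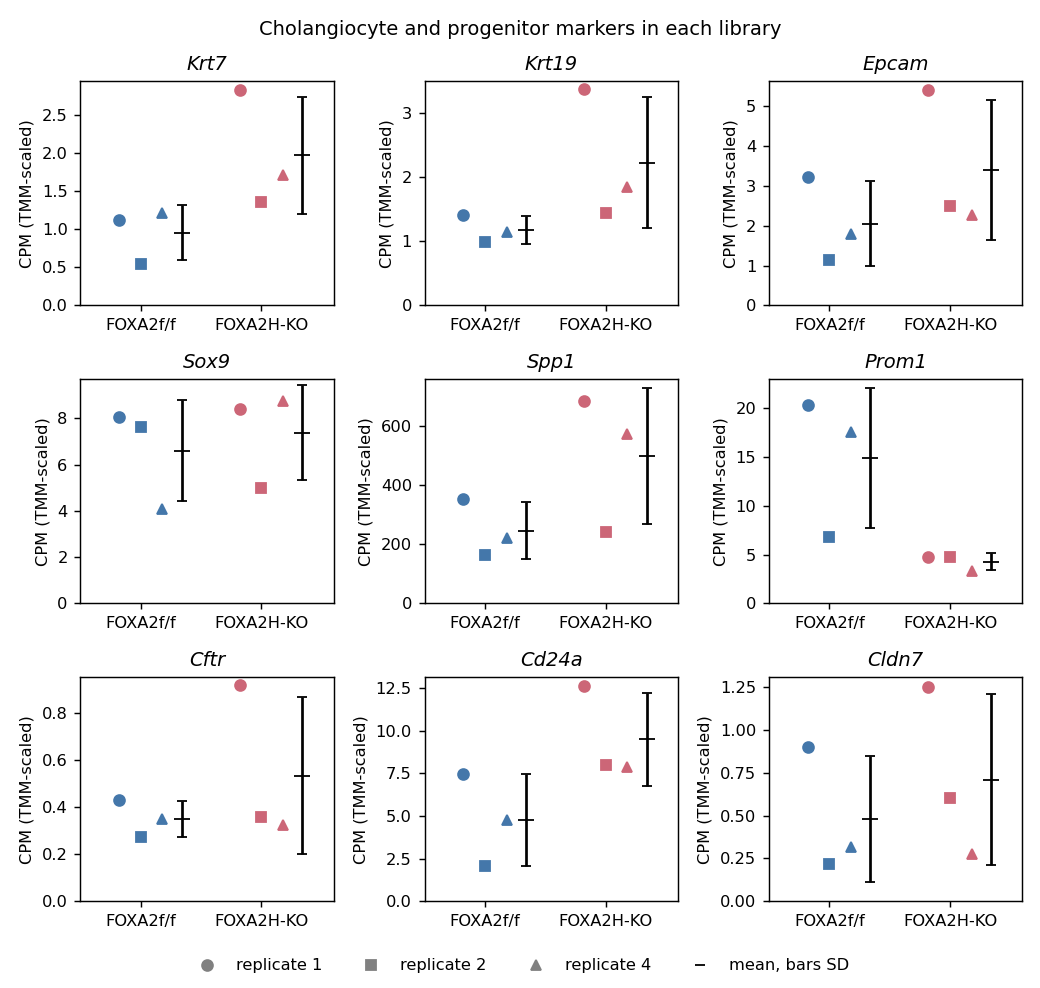
Level of each of the 9 genes in each library, in CPM scaled by TMM on linear axes that start at 0. Points are libraries, with the shape giving the replicate, and the black mark and bars give the mean and SD of 3 libraries. FOXA2H-KO replicate 1 is the highest point and FOXA2f/f replicate 2 the lowest for 7 of the 9 genes, while Prom1 lies at 3.28 to 4.78 CPM in FOXA2H-KO and 6.80 to 20.3 CPM in FOXA2f/f.

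The start regions of 4 members are shown first, Prom1 because it alone stood lower in FOXA2H-KO hepatocytes, and Spp1, Krt7 and Epcam as a secreted, a keratin and an adhesion member among the 7 that were highest and lowest in the same libraries. Each run is the 250 bases before an annotated start, written 5′ to 3′ on the strand of the gene (RefSeq, GRCm38.p6). Capitals mark a match to a searched motif. The Prom1 window is chr5:44101737-44101986 (minus strand), that of Spp1 chr5:104434861-104435110 (plus), that of Krt7 chr15:101412153-101412402 (plus) and that of Epcam chr17:87635729-87635978 (plus).
Prom1: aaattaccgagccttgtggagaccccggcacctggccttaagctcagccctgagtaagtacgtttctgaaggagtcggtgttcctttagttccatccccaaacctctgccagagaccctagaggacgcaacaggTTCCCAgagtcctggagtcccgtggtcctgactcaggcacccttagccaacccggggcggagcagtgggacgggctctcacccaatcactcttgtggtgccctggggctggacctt
Spp1: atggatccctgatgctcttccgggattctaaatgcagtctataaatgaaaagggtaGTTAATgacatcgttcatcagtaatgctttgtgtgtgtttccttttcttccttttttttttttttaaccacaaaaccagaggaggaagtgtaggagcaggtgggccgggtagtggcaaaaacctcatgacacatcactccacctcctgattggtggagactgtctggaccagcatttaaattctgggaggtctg
Krt7: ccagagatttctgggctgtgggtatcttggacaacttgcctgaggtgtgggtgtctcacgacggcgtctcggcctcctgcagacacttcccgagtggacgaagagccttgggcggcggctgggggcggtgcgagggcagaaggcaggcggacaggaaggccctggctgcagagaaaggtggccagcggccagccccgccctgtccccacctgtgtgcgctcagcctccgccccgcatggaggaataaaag
Epcam: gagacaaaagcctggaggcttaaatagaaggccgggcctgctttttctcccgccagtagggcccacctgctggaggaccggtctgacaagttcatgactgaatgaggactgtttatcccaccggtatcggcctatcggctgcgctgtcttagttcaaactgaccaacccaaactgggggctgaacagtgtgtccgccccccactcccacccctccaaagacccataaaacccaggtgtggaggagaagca

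The capitals in Prom1 are the reverse complement of TGGGAA, the core bound by the Notch effector RBPJ, and lie 116 bases before the start. Those in Spp1 are GTTAAT, the letters of 1 arm of an HNF1 site, 194 bases before the start. The RefSeq table used here held 9 start regions for 6 of the members. Start regions of Krt19, Sox9 and Cd24a were not analysed here. None of the 9 held the FOXA letters TGTTTAC or TATTTAC on either strand, which 3.16% and 2.73% of all 32817 start regions of the same length held. TGGGAA was in 2 of the 9 (21.6% of all start regions), GTTAAT in 1 (6.44%) and GGAATG, the letters read by TEAD factors, in 1 (12.6%). The GGAATG match and the other TGGGAA match were in the 2 start regions of Cldn7. These are matches of letters and not measured binding sites, and the sequence between the annotated starts and more distant enhancers was not searched.

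Prom1 stood apart from the other members. The gene encodes prominin-1, a membrane glycoprotein of cell protrusions, and lies at chr5:43993620-44102032 on the minus strand (GRCm38, GENCODE M21). Its counts were 473, 124 and 551 in FOXA2f/f and 130, 119 and 71 in FOXA2H-KO replicates 1, 2 and 4. These correspond to 20.3, 6.80 and 17.5 CPM against 4.78, 4.77 and 3.28 CPM. Every FOXA2H-KO library lay below every FOXA2f/f library, but FOXA2f/f replicate 2 was much nearer to the FOXA2H-KO libraries than to its own group. The mean was 14.9 ± 7.13 CPM in FOXA2f/f and 4.28 ± 0.862 CPM in FOXA2H-KO (SD, n = 3 each). The log2 fold change was -1.80 ± 0.40 (SE), a 3.48-fold lower fitted level, with an unadjusted p of 0.00218 and an adjusted p of 0.579 by edgeR's quasi-likelihood test.

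Whether Prom1 is called depended on the test and on 1 library. DESeq2 gave an adjusted p of 0.00394 and edgeR's exact test 0.0113, with the same log2 fold change to 2 decimals (-1.80), and Prom1 was then the only member among the called genes, which were 0.457% of all genes with an adjusted p in DESeq2 and 0.444% in the exact test. Without FOXA2f/f replicate 2 the quasi-likelihood test gave -2.14 and an adjusted p of 0.0425. Over all alternatives with a value for Prom1 the adjusted p ran from 0.00394 to 0.9998. The direction held in all 6 fits that left out 1 library, from -2.14 to -1.50. Reads of Prom1 can be shared with the gene Gm16401, which overlaps 5.9% of its exonic bases and had 0 to 2 counts a library.

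Prom1 was also set against Epcam, Krt19 and Cd24a inside each library, where no scaling between libraries enters. These ratios were chosen after the values were seen and are a description. For Krt19 and Cd24a, separate ratios follow from the levels, because Prom1 was lower and these genes higher in FOXA2H-KO without overlap. The ratios to Krt19 and Cd24a are thus no further support. For each count of Epcam there were 6.31, 5.90 and 9.84 counts of Prom1 in FOXA2f/f replicates 1, 2 and 4, and 0.884, 1.92 and 1.45 in FOXA2H-KO. For each count of Krt19 the numbers were 14.3, 6.89 and 15.3 against 1.41, 3.31 and 1.78, and for each count of Cd24a 2.72, 3.26 and 3.67 against 0.379, 0.598 and 0.418. FOXA2f/f replicate 2, which was low in Prom1 by level, was thus nearer to its own group by its ratios to Epcam and Cd24a. Sox9 was not among these denominators. Prom1 and Sox9 had 124 and 139 counts in FOXA2f/f replicate 2, and 119 and 125 in FOXA2H-KO replicate 2. Against Sox9 the groups were therefore not separate.

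**Figure D2:**
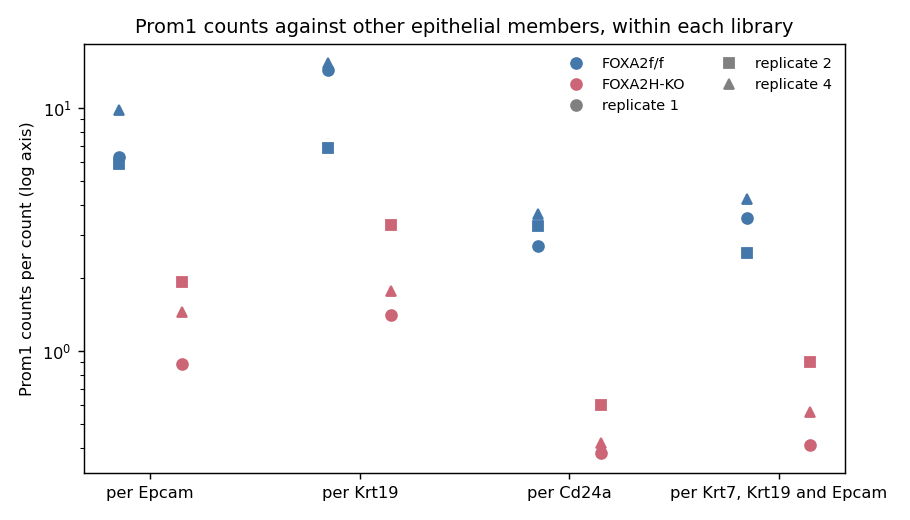
Counts of Prom1 per count of Epcam, Krt19, Cd24a, and of Krt7, Krt19 and Epcam summed, within each library, on a log axis. Colours give the group and shapes the replicate. The sums give 2.53 to 4.24 in FOXA2f/f and 0.411 to 0.902 in FOXA2H-KO, and the groups are separate for all 4 denominators. For Krt19 and Cd24a this follows from their levels, which, like those of Prom1, did not overlap between groups. Sox9 is not among the denominators.

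Markers of neutrophils were also lower in FOXA2H-KO in mean. Of the 9 tested neutrophil markers 8 were lower in FOXA2H-KO, 7 of them at an unadjusted p under 0.05. None was called by edgeR's quasi-likelihood test, while DESeq2 called 1 and the exact test 2, with a median log2 fold change of -3.20. The list summed to 107, 7.11 and 70.8 FPKM in FOXA2f/f replicates 1, 2 and 4 and to 16.1, 21.2 and 11.3 FPKM in FOXA2H-KO. S100a9, the most abundant of them, stood at a mean of 24.9 FPKM in FOXA2f/f and 6.30 FPKM in FOXA2H-KO, and no gene of the list was at 0 in all 6 libraries. Within FOXA2f/f both the neutrophil sum and Prom1 were lowest in replicate 2, where the sum was below and Prom1 above all 3 FOXA2H-KO libraries. The part of neutrophil RNA in the Prom1 values was not tested. The genes most like Prom1 over the 6 libraries were Adrb3, an adrenergic receptor, Enho, which encodes the hormone adropin, and the immunoglobulin segment Igkv1-135, one of a family whose reads may be shared, with root mean square differences of 0.22, 0.23 and 0.24 in centred log2(CPM + 1), where Prom1 itself had an SD of 0.96.

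The keratins of bile ducts were both higher in FOXA2H-KO. Krt7, a type II keratin (chr15:101411043-101430313, plus strand), had 26, 10 and 38 counts in FOXA2f/f replicates 1, 2 and 4 and 77, 34 and 37 in FOXA2H-KO. This was 1.12, 0.548 and 1.21 CPM against 2.83, 1.36 and 1.71 CPM, without overlap. The log2 fold change was 1.02 ± 0.43 (SE, n = 3 per group; unadjusted p = 0.0472, adjusted p = 0.941 by edgeR's quasi-likelihood test).

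Krt19, the type I partner (chr11:100140810-100148665, minus strand), had 33, 18 and 36 counts in FOXA2f/f and 92, 36 and 40 in FOXA2H-KO. Its levels of 1.417, 0.987 and 1.14 CPM in FOXA2f/f were all below those of 3.38, 1.44 and 1.85 CPM in FOXA2H-KO, though replicate 2 of FOXA2H-KO was only just above replicate 1 of FOXA2f/f. The log2 fold change was 0.91 ± 0.40 (SE, n = 3 per group; adjusted p = 0.941 by edgeR's quasi-likelihood test). Without FOXA2H-KO replicate 1 the values were 0.66 for Krt7 and 0.47 for Krt19. The ratio of Krt7 to Krt19 counts was 0.788, 0.556 and 1.06 in FOXA2f/f and 0.837, 0.944 and 0.925 in FOXA2H-KO, with FOXA2H-KO values inside the range of FOXA2f/f. In likeness over libraries, Krt7 was nearest to Ezr, which encodes the membrane linker ezrin (root mean square difference 0.04), and Krt19 to the kinase gene Stk26 (0.08). At about 1 CPM the added 1 damps the differences of these keratins, so the small values partly follow from their low level.

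The epithelial adhesion and junction members were more scattered. Epcam, the adhesion molecule of duct epithelium (chr17:87635979-87651129, plus strand), stood at 3.22, 1.15 and 1.78 CPM in FOXA2f/f and 5.41, 2.49 and 2.27 CPM in FOXA2H-KO. FOXA2f/f replicate 1 was above FOXA2H-KO replicates 2 and 4, so the groups overlapped. Its difference on the log2 scale was 0.72 ± 0.48 (SE, n = 3 per group; adjusted p = 0.983 by edgeR's quasi-likelihood test) and was 0.21 without FOXA2H-KO replicate 1, 0.45 without FOXA2f/f replicate 2 and 1.20 without FOXA2f/f replicate 1. Cldn7, a tight-junction claudin (chr11:69964779-69967885, plus strand), rested on 4 to 34 counts a library, with 0.902, 0.219 and 0.318 CPM in FOXA2f/f and 1.25, 0.602 and 0.277 CPM in FOXA2H-KO. Replicate 4 of FOXA2H-KO lay below replicates 1 and 4 of FOXA2f/f. Its log2 fold change was 0.57 ± 0.70 (SE, n = 3 per group; adjusted p = 0.983 by edgeR's quasi-likelihood test) and took the opposite sign, -0.12, without FOXA2H-KO replicate 1, with 0.28 to 1.38 when another library was left out.

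Cftr, the chloride channel of the apical membrane of cholangiocytes (chr6:18170687-18322768, plus strand), had too few counts to be tested. There were 10, 5 and 11 counts in FOXA2f/f and 25, 9 and 7 in FOXA2H-KO, or 0.430, 0.274 and 0.350 CPM against 0.920, 0.361 and 0.324 CPM. Replicate 1 of FOXA2H-KO was the single high library and the others overlapped. With the filter on low counts lifted, the log2 fold change was 0.60 and no difference was detectable at this depth.

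Cd24a and Spp1 were also higher in mean. Cd24a encodes a small surface protein carried by duct and progenitor cells and also by immature blood cells, and lies at chr10:43578284-43584265 on the plus strand. Its levels were 7.47, 2.08 and 4.77 CPM in FOXA2f/f and 12.6, 7.98 and 7.86 CPM in FOXA2H-KO, from 38 to 343 counts. The groups did not overlap, with the highest FOXA2f/f library just below the lowest of FOXA2H-KO. This gave a log2 fold change of 0.98 ± 0.43 (SE, n = 3 per group; adjusted p = 0.941 by edgeR's quasi-likelihood test), and 0.64 without FOXA2f/f replicate 2. Cd24a shares stretches of over 200 bases at 92.3% and 96.8% identity with the genes Gm15352 and Gm6212, for which the count files hold no row, so reads from these could have been counted under Cd24a or discarded. Cd24a was nearest over libraries to Ehf, an epithelial ETS factor (root mean square difference 0.20), and to Ccr2, a chemokine receptor of monocytes (0.24).

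Spp1, which encodes the secreted phosphoprotein osteopontin (chr5:104435118-104441050, plus strand), was the most abundant member. It had 8214, 2982 and 6999 counts in FOXA2f/f and 18670, 6015 and 12391 in FOXA2H-KO. The levels were 352.8, 163.5 and 222.4 CPM against 686.7, 241.2 and 573.0 CPM. Replicate 2 of FOXA2H-KO lay within the FOXA2f/f range and the others above it. The log2 fold change was 1.02 ± 0.42 (SE, n = 3 per group; unadjusted p = 0.0426, adjusted p = 0.941 by edgeR's quasi-likelihood test), and it was between 0.73 and 1.39 when 1 library was left out. Spp1 shares 18.8% of its exonic bases with Gm42793, which had 1 to 11 counts a library. Its nearest genes over libraries were Cpe, a peptide-processing carboxypeptidase (root mean square difference 0.17), and Saa3, an acute-phase protein (0.22).

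Sox9, the transcription factor of duct cells and of hepatocytes that take on duct features (chr11:112782224-112787760, plus strand), showed no comparable difference. Its levels were 8.08, 7.62 and 4.10 CPM in FOXA2f/f and 8.39, 5.01 and 8.74 CPM in FOXA2H-KO, from 125 to 228 counts. The groups overlapped almost entirely, and the high and low libraries were not those of the other members. On the log2 scale the difference was 0.17 ± 0.33 (SE, n = 3 per group; adjusted p = 0.991 by edgeR's quasi-likelihood test), and -0.09 without FOXA2f/f replicate 4. Sytl5 and Zfp750 were the nearest genes to Sox9 (root mean square differences 0.11 and 0.13).

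**Figure D3:**
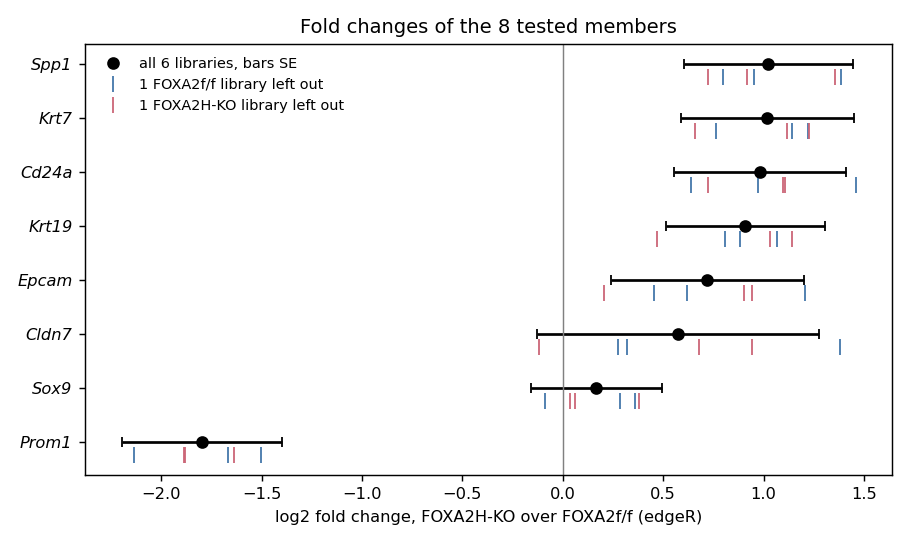
Log2 fold change of the 8 tested members, with black points and bars for the estimate from all 6 libraries and its SE, and ticks for the estimates with 1 library left out, coloured by the group that lost it. Prom1 stays between -2.14 and -1.50, Sox9 and Cldn7 cross 0, and the other 5 stay above 0.

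Much of the higher mean came from 1 library in each group. FOXA2H-KO replicate 1 was the highest library for 7 of the 9 members, all but Sox9 and Prom1, and FOXA2f/f replicate 2 was the lowest for the same 7. With FOXA2H-KO replicate 1 left out, the median log2 fold change of the 8 tested members was 0.34, and with FOXA2f/f replicate 2 left out it was 0.55. With both left out, an alternative chosen after seeing the data, it was 0.27, and Prom1 was then at -2.23 (adjusted p = 0.143 by edgeR's quasi-likelihood test) while Spp1 was at 0.50, Krt7 at 0.40, Cd24a at 0.38, Krt19 at 0.36 and Epcam at -0.06.

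Markers of other cell types were uneven over the same libraries. All 6 mesothelial markers were highest in FOXA2H-KO replicate 1, and their sum was 1.95 to 3.89 FPKM in FOXA2f/f and 2.89 to 15.2 FPKM in FOXA2H-KO, with none at 0 in all libraries. Msln (mesothelin) had 29, 15 and 55 counts in FOXA2f/f and 199, 30 and 79 in FOXA2H-KO, and the median log2 fold change of the list was 1.24, or 0.56 without FOXA2H-KO replicate 1. Mesothelial cells, the lining of the liver surface, are known to carry Krt7 and Krt19 as well. The part of the mesothelial signal in the keratin values was not tested.

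All 13 macrophage markers were lowest in FOXA2f/f replicate 2. Their sum was 657.7, 301.6 and 1770 FPKM in FOXA2f/f and 1497, 1122 and 781.9 FPKM in FOXA2H-KO, with Lyz2 and Cd5l the most abundant. Their median log2 fold change was 0.36 with all libraries, 0.01 without FOXA2f/f replicate 2 and 1.05 without FOXA2f/f replicate 4. Macrophages can carry Spp1. The macrophage sum and Spp1 were both lowest in FOXA2f/f replicate 2 and both highest within FOXA2H-KO in replicate 1, and the largest macrophage sum, that of FOXA2f/f replicate 4, stood beside 222.4 CPM of Spp1. Stellate and fibroblast markers summed to 151.8 to 548.9 FPKM in FOXA2f/f and 299.8 to 478.4 FPKM in FOXA2H-KO, led by Dcn and Col3a1, and endothelial markers, led by Cdh5 and Eng, to 29.7 to 129 FPKM and 63.9 to 76.6 FPKM. Lymphocyte markers summed to at most 3.17 FPKM, with Cd79a and Cd79b on top, and erythroid markers, with Alas2 and Hba-a1 on top, to between 11.2 and 25.3 FPKM. No listed marker of these cell types was at 0 in all 6 libraries, and their part in the members' values was not tested.

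**Figure D4:**
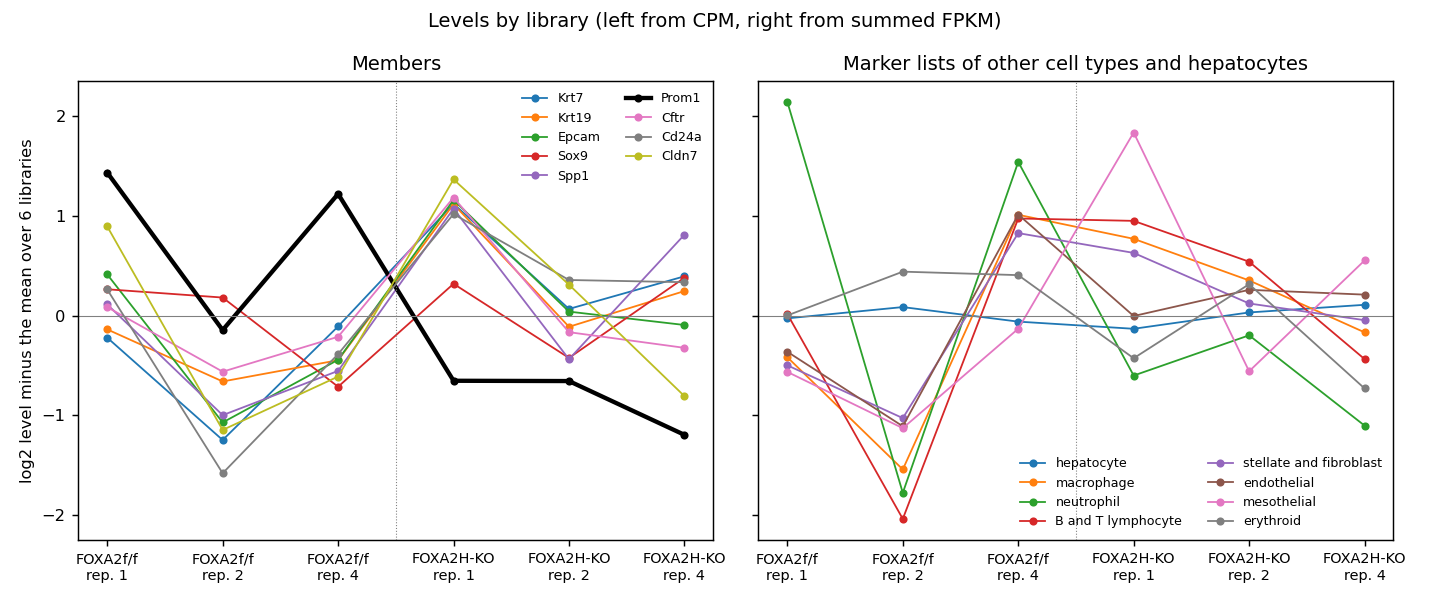
Level of each member (left, from CPM) and of each summed marker list (right, from FPKM) in each library, as log2 minus the mean over the 6 libraries; lines join the libraries only to guide the eye. Prom1 (thick line) is at or above -0.15 in FOXA2f/f and below -0.65 in FOXA2H-KO, and the mesothelial sum peaks in FOXA2H-KO replicate 1 together with 7 members.

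The order of the members by level was led by Spp1 on either length scale. In the authors' FPKM, Spp1 averaged 44.1 ± 16.7 in FOXA2f/f and 98.4 ± 49.4 in FOXA2H-KO (SD, n = 3), and no library of Cd24a, the next gene, came near it, at 2.56 ± 1.41 and 5.53 ± 1.98 FPKM. In FOXA2f/f the order went on with Sox9, Prom1, Epcam and Krt19, whose neighbours overlapped in range, then Cldn7 and Krt7, which also overlapped, and Cftr last at 0.0318 FPKM. In FOXA2H-KO Prom1 took the sixth place, at 0.391 ± 0.096 FPKM, below Epcam and Krt19, with no overlap between its range and that of Krt19.

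The FPKM scale depends on the gene length the authors divided by, which the values imply to be 5372 bases for Spp1 and 11504 for Prom1, whereas their main transcripts in GENCODE M21 have 1507 and 3664. Per kilobase of the main transcript, Prom1 moved up to second place in FOXA2f/f, at 4.06 ± 1.95 CPM per kilobase, overlapping Cd24a at 2.63 ± 1.48, and was sixth again in FOXA2H-KO at 1.17 ± 0.24, overlapping Krt19. Ratios between groups do not depend on this length.

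Further genes of the duct lineage did not follow the members as a block. Of 30 listed duct genes 27 were tested, 17 with a log2 fold change above 0 and 10 below, 0 called by edgeR's quasi-likelihood test (1 higher and 2 lower at an unadjusted p under 0.05) and 0 by DESeq2 or edgeR's exact test. Their median was 0.18, and -0.02 without FOXA2H-KO replicate 1. Scaling by library size alone raised the median of all genes to 0.10, that of the duct genes to 0.31 and the split to 21 above and 6 below 0. Cldn3, a claudin of hepatocytes and ducts, stood at 67.0, 61.5 and 37.2 CPM in FOXA2f/f and 31.6, 30.2 and 28.5 CPM in FOXA2H-KO, without overlap (log2 fold change -0.87 ± 0.22 SE, n = 3 per group; unadjusted p = 0.0041, adjusted p = 0.650 by edgeR's quasi-likelihood test). St14, the membrane protease matriptase, was at 1.37, 0.713 and 1.14 CPM in FOXA2f/f and 4.05, 2.01 and 1.66 CPM in FOXA2H-KO (1.25 ± 0.44 SE, n = 3 per group; adjusted p = 0.837 by the same quasi-likelihood test), and 0.76 without FOXA2H-KO replicate 1. Krt8 and Krt18, keratins that hepatocytes share with ducts, differed by -0.02 ± 0.19 and -0.10 ± 0.23 on the log2 scale (SE).

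Among progenitor and fetal liver genes, Afp and Gpc3 stood lower in FOXA2H-KO in mean. Of 16 listed genes 10 were tested, 4 above and 6 below 0, with 0 called by edgeR's quasi-likelihood test (0 higher and 2 lower at an unadjusted p under 0.05), while DESeq2 and the exact test each called 1, Afp. The median log2 fold change was -0.05, -0.24 without FOXA2f/f replicate 2 and 0.06 with library size alone, where 5 genes lay on either side of 0. Afp, the fetal serum protein alpha-fetoprotein, stood at 68.3, 44.6 and 20.7 CPM in FOXA2f/f and 10.9, 13.6 and 11.6 CPM in FOXA2H-KO. The FOXA2H-KO libraries were all lower and close to each other, and those of FOXA2f/f were spread widely. Its log2 fold change was -1.89 ± 0.39 (SE, n = 3 per group; unadjusted p = 0.00144, adjusted p = 0.579 by edgeR's quasi-likelihood test), and the adjusted p was between 0.00131 and 0.9998 over 17 alternatives, with DESeq2 and edgeR's exact test calling it. Gpc3, an oncofetal proteoglycan, was at 8.38, 2.63 and 2.51 CPM against 2.54, 1.04 and 1.43 CPM, with overlap (-1.422 ± 0.56 SE, n = 3 per group; adjusted p = 0.918 by edgeR's quasi-likelihood test), and its log2 fold change was -0.60 without FOXA2f/f replicate 1. Lin28b was at 0 in all 6 libraries, which allows up to 0.143 CPM in the shallowest one (3 counts, counting error only).

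Notch and YAP signalling, the pathways known for driving duct fate, gave 17 tested genes of 18 listed. There were 10 above and 7 below 0, 0 called by edgeR's quasi-likelihood test (0 at an unadjusted p under 0.05) and 0 by DESeq2 or the exact test, and the median was 0.07 (0.14, with 13 above and 4 below 0, under library size alone, and -0.03 without FOXA2f/f replicate 2). Cyr61, a YAP target, stood at 34.1, 13.6 and 18.2 CPM in FOXA2f/f and 16.5, 12.6 and 12.8 CPM in FOXA2H-KO, with overlap (-0.66 ± 0.33 SE, n = 3 per group; adjusted p = 0.944 by edgeR's quasi-likelihood test), and the difference was -0.18 without FOXA2f/f replicate 1. Ankrd1, another YAP target, was at 0.344, 0.329 and 0.795 CPM against 1.103, 0.682 and 0.879 CPM (0.81 ± 0.47 SE, n = 3 per group; adjusted p = 0.964 by the same quasi-likelihood test), and 1.39 without FOXA2f/f replicate 4. The receptor Notch2 differed by -0.04 ± 0.14 and the ligand Jag1 by 0.13 ± 0.20 on the log2 scale (SE).

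**Figure D5:**
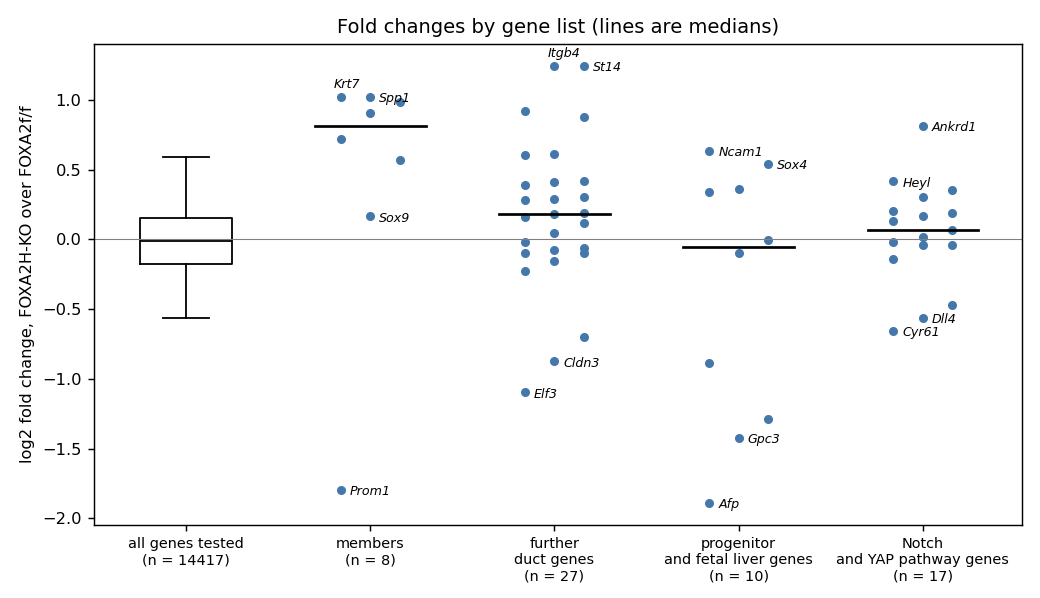
Log2 fold changes by gene list, with 1 point per tested gene and a line at each median. The box of all genes spans the quartiles and its whiskers the 5th to 95th percentile. The medians are 0.82 for the members, 0.18 for further duct genes, -0.05 for progenitor and fetal liver genes and 0.07 for Notch and YAP pathway genes, and Prom1 and Afp are the lowest points.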

How the data were processed

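Hepatocyte RNA of 3 FOXA2f/f and 3 FOXA2H-KO libraries from CCl4-treated mice was analysed from 1 table per library. The authors deposited, per gene, a whole-number count without normalization and an FPKM value. The deposited FPKM follow from the counts: with the library total divided out, each gene had 1 implied length over libraries (largest relative spread 8.3e-05 over 12937 genes). The submitters' processing notes name CASAVA 1.8, TopHat2 2.1.0, HTSeq and edgeR and the build mm10, without roles. The annotation and the strand setting of the counting are not given in the sources used here. A further table with the values of all libraries held the same numbers and was not used.

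The count test was the quasi-likelihood test of edgeR 4.0.16 (under R 4.3.3), after TMM and the filterByExpr rule at a minimum count of 10, with no replicate block. SE is the log2 fold change divided by the square root of F. Calls needed a Benjamini-Hochberg adjusted p under 0.05 and at least 2-fold. CPM were scaled to TMM library sizes, with factors of 0.87 to 1.12. Replicates differed by 35.9 to 123 times the chi-square degrees of freedom, so none was a duplicate. The labels do not tie each library to its own mouse, so p-values measure the spread between libraries, which may be technical. Alternatives used DESeq2 1.42.0, edgeR's exact test, other scalings and filters, limma 3.58.1 on log2(FPKM + 1) or log2(FPKM + 0.1), and left out each library. Symbols came from the reference tables, positions and overlaps from GENCODE M21, and look-alike transcripts from blastn 2.17.0 (at least 200 bases at 90% identity). The scripts were tested on simulated data.

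The members and lists were written with earlier results of these data known. Named were Foxa2, the 9 members, and in each further list the 2 tested genes with the smallest p and any called one. For each tested member, up to 3 genes (mean of at least 1 CPM) nearest in centred log2(CPM + 1) were named. In each marker list up to 2 of the most abundant genes were named. Krt8, Krt18, Notch2 and Jag1 were named after their values were seen.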

Additional observations from a re-analysis of the deposited data

How the results depend on the processing

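The number of genes called, 1 with edgeR's quasi-likelihood test, was 73 with DESeq2, 64 with the exact test and 2 with no filter on low counts, and it was 0 with library size alone, in the 3 limma fits on FPKM and with 2 libraries dropped (FOXA2f/f replicate 2 and FOXA2H-KO replicate 1, chosen after seeing the data), and 0 to 6 with 1 library left out. Of the members, 1 (Prom1) was called by DESeq2 and by the exact test, and 0 to 1 with 1 library left out. Members without overlap between groups numbered 4, and 1 in the limma fits on log2(FPKM + 1) and log2(FPKM + 0.1), whose minimum mean FPKM of 1 left fewer members to count. They numbered 6 without FOXA2f/f replicate 1 or without FOXA2H-KO replicate 2 and 4 with any other library left out, while the share over all genes tested, 10.5% with 6 libraries, was 17.3% and 18.6% in those 2 fits and 15.6% to 36.4% over all 6 that left out 1 library. The median log2 fold change of the members, 0.82, was 0.19 in the limma fit on log2(FPKM + 1) without a filter and 0.27 with 2 libraries dropped, and ran from 0.34 to 1.17 with 1 library left out. Library size alone moved the median of all genes to 0.10 and FPKM + 0.1 to 0.11, and the members' median was 0.96 under library size alone. Signs turned for Epcam with 2 libraries dropped (-0.062), for Sox9 without FOXA2f/f replicate 4 (-0.090, up to 0.38 with another library left out), and for Cldn7 without FOXA2H-KO replicate 1 (-0.12, up to 1.38 with another left out) and with 2 libraries dropped (-0.41). The causes were not tested. Cftr had a value only with the filter lifted and in 2 more fits, so no alternative is given for it.

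The deviations of samples with the same replicate number had correlations of -0.069, 0.026 and -0.226. No sample correlated best with that of its own number. With 3 libraries per group, these values cannot decide whether the numbers pair the samples. With the replicate number as a block 0 genes and 0 members were called. The unadjusted p of edgeR's quasi-likelihood test was then lower for Spp1 (0.0046, from 0.0426) and Cd24a (0.0108, from 0.0529). It was higher for Prom1 (0.0046, from 0.0022). A count of 4 to 34 in Cldn7 and 5 to 25 in Cftr limits what these libraries can show.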
